A study of Mus musculus with 5 samples.

Results

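Hand1-high E-cadherin-positive cells were selected from single-cell RNA sequencing libraries of differentiating mouse EpiSCs (epiblast stem cells), which are pluripotent and derive from the epiblast after implantation. The members were the retained cells of the 4 FGF2 libraries with at least 5 UMIs (unique molecular identifiers, each standing for 1 captured mRNA molecule) of Hand1, at least 2 of Cdh1, which encodes E-cadherin, and none of Cdh2, which encodes N-cadherin. They also had at most 2 UMIs of Cdkn2a, at most 7 of T and at most 1 of Tbx6. These limits were met by 171 of 8952 retained cells (1.91%), of which 101 were from the library without FGF2, 65 from that with 0.75 ng/ml FGF2, 2 from that with 3 ng/ml and 3 from that with 12 ng/ml. All 5 libraries of the series together held 10653 retained cells. All counts of the 6 genes used for selection are given as descriptions and were left out of every test.

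A single wild-type EpiSC line was differentiated for 3 days in N2B27 medium with BMP4 at 8 ng/ml and the GSK3 inhibitor CHIR99021, which activates Wnt signaling, at 1 µM. Cultures differed only in FGF signaling, with 0, 0.75, 3 or 12 ng/ml FGF2 or with 30 nM of the FGF receptor inhibitor AZD4547, and 1 library was sequenced per condition. The question put to these cultures was how the strength of FGF signaling shapes the cell types formed under BMP and Wnt stimulation. In the order of rising FGF2 dose, the deposited matrices held 58393453, 84046746, 66761500 and 73013019 UMIs, and that of the AZD4547 library 50167816.

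The extraembryonic ectoderm is the trophoblast tissue that lies on top of the epiblast in the mouse egg cylinder, and it gives rise to the chorion and the placenta. Its stem cells depend on FGF signaling and express the transcription factors Cdx2, Eomes, Elf5 and Esrrb, whereas trophoblast that leaves the stem cell state expresses Ascl2, Gata2, Hand1, Esx1 or Plac1, depending on the branch. Hand1 is also a gene of extraembryonic and lateral plate mesoderm, which lack E-cadherin once they have left the epithelium.

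Hand1-high E-cadherin-positive cells were found mostly without or with little FGF2. They made up 5.96% of retained cells without FGF2 (exact binomial 95% interval 4.88–7.19%) and 2.39% with 0.75 ng/ml (1.85–3.03%). With 3 ng/ml they were 0.0941% (0.0114–0.340%) and with 12 ng/ml 0.125% (0.0257–0.364%). The share at 0 ng/ml was 2.50 times that at 0.75 ng/ml (exact conditional interval 1.81–3.46) and 47.8 times that at 12 ng/ml (15.9–235). The latter ratio was 18.7 (9.53–41.9) with limits applied to counts thinned to 10000 UMIs per cell and 23.6 (11.6–55.8) with at least 3 UMIs of Hand1. Between 3 and 12 ng/ml the ratio was 0.755 (0.0630–6.59), so that no difference was detectable with 2 and 3 cells. All such intervals cover counting error only. With 1 library per dose, no test between doses was possible, and dose and culture cannot be told apart.

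Both features used for selection were also less frequent with more FGF2, but each by a smaller factor. Of all retained cells, the share with at least 5 UMIs of Hand1 was 19.9%, 8.81%, 6.02% and 4.99% in the order of rising dose. The share with E-cadherin but no N-cadherin UMIs was 35.3%, 31.6%, 16.4% and 10.6% in the same order. Of the cells with at least 5 UMIs of Hand1, those that met both cadherin limits were 40.9%, 31.7%, 2.34% and 4.17%. The limit of 2 UMIs of Cdh1 alone was met by 69.1%, 50.4%, 18.8% and 17.5% of them, and at least 1 UMI of Cdh2, which excluded a cell, was found in 49.3%, 62.1%, 94.5% and 91.7%. Hand1-high cells thus had Cdh1 less often and Cdh2 more often in the libraries with 3 and 12 ng/ml, and most of those with Cdh1 there also had Cdh2. The limit on Cdkn2a, a cell cycle inhibitor gene, removed 37 of 138 cells that had passed the Hand1 and cadherin limits without FGF2 and 9 of 76 with 0.75 ng/ml FGF2. The limit on T removed 2 cells of the 0.75 ng/ml and 1 of the 12 ng/ml library, and that on Tbx6 removed none.

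**Figure D1:**
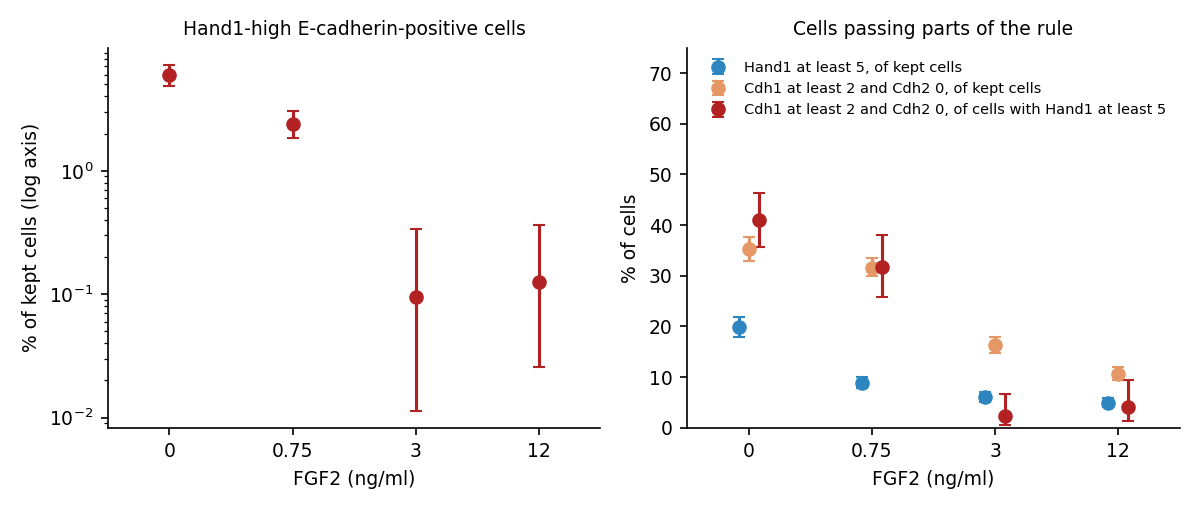
The left panel shows the share of Hand1-high E-cadherin-positive cells among retained cells on a log axis, and the right panel the shares of cells that pass parts of the selection, against FGF2 dose in ng/ml, with exact binomial 95% intervals as bars. The left panel runs from 5.96% at 0 ng/ml to 0.0941% at 3 ng/ml, and in the right panel the share of cells with at least 5 Hand1 UMIs that had at least 2 UMIs of Cdh1 and none of Cdh2 runs from 40.9% at 0 ng/ml to 2.34% at 3 ng/ml.

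Hand1 counts of the selected cells ranged from 5 to 40 UMIs at 0 ng/ml FGF2 (median 11) and from 5 to 46 at 0.75 ng/ml (median 10). Cdh1 counts ranged from 2 to 23 (median 6) and from 2 to 34 (median 5). Selected cells were more deeply sampled than the rest, with a median of 38730 UMIs against 29186 in the other retained cells at 0 ng/ml and 33952 against 27398 at 0.75 ng/ml. More than 50000 UMIs were found in 25.7% and 15.4% of the selected cells and in 12.1% and 5.83% of the others. The median mitochondrial share was 4.02% against 4.13% and 3.57% against 3.98%. No doublet caller was run, and the part of doublets in the selected cells was not tested. Among all pairs of libraries, 13 cell barcodes were shared, and none of them was a selected cell in 1 library and a retained cell in another.

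To describe the selected cells across genes, UMIs were summed per library over the selected cells and over 3 other sets of cells. These were all other retained cells, Hand1-low E-cadherin-positive cells (at most 1 UMI of Hand1, other limits as above; 323 cells without FGF2 and 674 with 0.75 ng/ml) and Hand1-high N-cadherin-positive cells (at least 5 UMIs of Hand1, at least 2 of Cdh2 and none of Cdh1; 34 and 42 cells). Levels are given as CPM, the counts per 1e6 of the summed UMIs. Tests used the 0 and 0.75 ng/ml libraries, which alone held at least 20 selected cells, with edgeR's quasi-likelihood test, the library as block and Benjamini-Hochberg adjustment over all genes tested. They rest on 2 libraries and 1 residual degree of freedom, and both sums of a pair come from the same library. The test draws the spread of each gene toward a trend over all genes. The p-values thus rest on the spread of other genes too, not only on that of the gene between these 2 libraries. In summed counts, more cells with a gene and more RNA of it per cell cannot be told apart.

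Compared with all other retained cells, the selected cells were higher in 7 of 15 trophoblast genes tested, among them Esx1, Ascl2 and Plac1, and lower in 30 of 32 Hox and 11 of 12 caudal genes. Of 14219 genes tested, 1146 were higher (8.06%) and 1063 lower (7.48%), and the median log2 fold change over all of them was −0.02. Limited to cells of 20000 to 50000 UMIs, 2620 genes passed in all. Without the library as block 862 genes passed, and in a fit over all 4 libraries 2291 passed, with 628 left when the 0.75 ng/ml library was left out and 1049 when the 0 ng/ml library was. Esx1, an X-linked homeobox gene of trophoblast, had the largest fold change among the higher genes that passed the naming rule (at least 50 CPM, the same direction in both libraries). Its level in the selected cells was 51.8 CPM without FGF2 and 76.6 CPM with 0.75 ng/ml (values are given in this order below), against 5.35 and 4.79 CPM in the others (log2 fold change 3.61, SE 0.19, edgeR adjusted p = 2.52e-05). Ascl2, an imprinted basic helix-loop-helix gene needed for the spongiotrophoblast layer of the placenta, was at 145 and 125 CPM against 15.1 and 8.04 CPM (3.56, SE 0.16, edgeR adjusted p = 1.44e-05). Both genes were higher in each library by more than the libraries differed from each other.

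The other genes of this set included further placental genes. Plac1, an X-linked gene required for normal placental growth, was at 112 and 56.8 CPM against 14.9 and 4.79 CPM (log2 fold change 3.16). Gata2, a GATA factor of trophoblast and surface ectoderm, was at 53.7 and 51.7 CPM against 8.44 and 3.43 CPM (3.21). H19, a maternally expressed non-coding RNA, was at 101 and 148 CPM against 24.5 and 10.3 CPM (2.89), and it was concentrated in few cells, as the tenth of selected cells with most H19 UMIs held 91.1% and 84.8% of them and 25.7% and 29.2% of cells had any. Sct, which encodes the hormone secretin, was at 663 and 554 CPM against 91.8 and 91.7 CPM (2.70). Fgfbp1, which encodes a carrier protein that releases FGFs from the matrix, was at 85.5 and 106 CPM against 14 and 12.9 CPM (2.80). Nup62cl, Mbnl3 and Ndrg1 completed the 10, with log2 fold changes of 3.21, 2.92 and 2.88. In GRCm38 coordinates, Esx1 lies on chromosome X from 137115397 to 137122083 (minus strand), Plac1 on chromosome X from 53069995 to 53240111 (minus strand), Ascl2 on chromosome 7 from 142966829 to 142969264 (minus strand) and Gata2 on chromosome 6 from 88193891 to 88207032 (plus strand).

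Hox genes and their antisense transcripts led the genes that were lower. Hoxb5os, a non-coding transcript of the Hoxb cluster, was at 4.88 and 3.16 CPM against 110 and 141 CPM (log2 fold change −4.87), and Hoxaas3 of the Hoxa cluster at 15.3 and 11.4 CPM against 208 and 353 CPM (−4.27). Hoxb9 was at 13.7 and 9.87 CPM against 161 and 249 CPM (−4.02, SE 0.20, edgeR adjusted p = 2.21e-05). Hoxb8, Hoxb4, Hoxa9 and Hoxa7 followed with −3.58, −3.53, −3.46 and −3.16. Reads of overlapping Hox and antisense transcripts may be shared between them in these counts. Rspo3, an R-spondin that strengthens Wnt signaling in caudal mesoderm, was at 6.74 and 16.6 CPM against 100 and 223 CPM (−3.84). Sall3, a zinc finger gene, was lower too (−3.58). Fgf8, an FGF ligand of the primitive streak, was at 0.930 and 11.8 CPM against 26.5 and 74.2 CPM (−3.21), and this is the 1 named gene whose call was lost when the library block was left out.

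**Figure D2:**
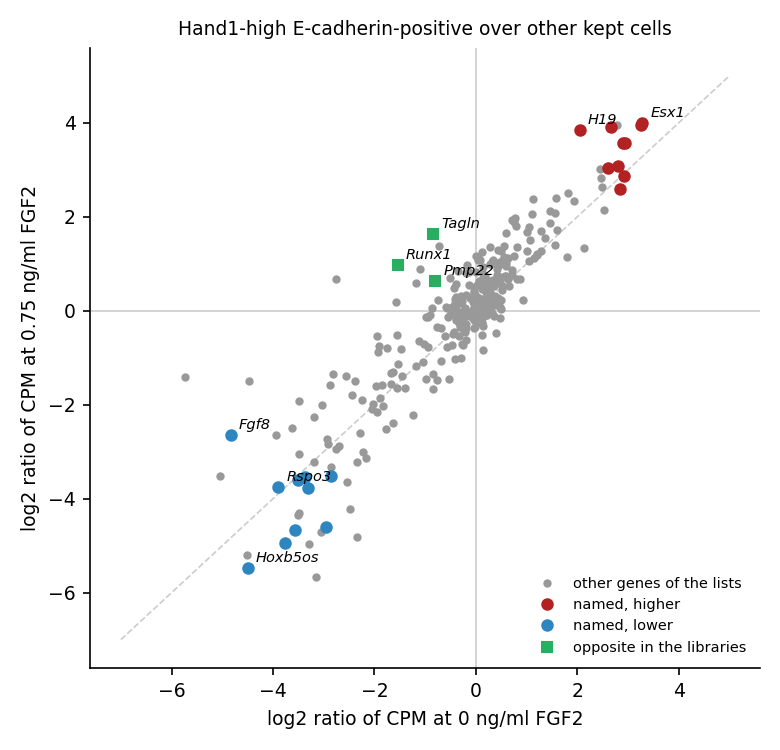
Each point is a gene of the lists or of the named sets, with its log2 ratio of CPM in Hand1-high E-cadherin-positive cells over all other retained cells at 0 ng/ml FGF2 (x axis) and at 0.75 ng/ml (y axis); the dashed line marks equal ratios, and genes below 10 CPM in all 4 sums or at 0 in any are left out. Red points (named higher) lie above 2 and blue points (named lower) below −2 in both libraries, and the 3 green squares mark genes whose ratios differed from 1 by more than counting error in opposite directions.

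Whether the selected cells carry the identity in their label was examined with a list of 17 extraembryonic ectoderm and trophoblast genes. Of the 15 that could be tested, 7 were higher and 1 was lower, with a median log2 fold change of 1.51. Besides Esx1, Ascl2 and Plac1, the higher genes were Tfap2c (130 and 101 CPM against 37.6 and 45.2 CPM, 1.47), an AP-2 factor of trophoblast and ectoderm, Gata3 (23.5 and 29.2 CPM against 10.8 and 7.0 CPM, 1.53), Tead4 (1.48) and Wnt7b (1.51). The gene that was lower was Cdx2, with 32.1 and 63.9 CPM against 115 and 192 CPM (−1.74, SE 0.10, edgeR adjusted p = 4.08e-05). It was lower than in the Hand1-low E-cadherin-positive cells by about as much (−1.63). Cdx2 is known both as a trophoblast stem cell gene and as a gene of the caudal embryo.

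Of the trophoblast stem cell factors, Elf5, Eomes and Esrrb were at or near 0, while Cdx2 was at the levels given above. Elf5 had no UMI in the selected cells of either library, which allows up to 0.697 and 1.18 CPM for a count of 3. Elf5 was sparse everywhere, with a UMI in 0.251% and 0.564% of the other retained cells, so that a difference from them was not detectable at this depth. Eomes had 1 UMI in each library (0.232 and 0.395 CPM) and Esrrb 3 and 2 UMIs (0.697 and 0.789 CPM), and neither passed the test. Zfp42 had none. Rhox5, Rhox6 and Rhox9, homeobox genes of an X-linked cluster active in the placenta, were at no more than 5.35 CPM and did not pass the test, with edgeR adjusted p-values of 0.281, 0.0675 and 0.0806. Bmp4, which the extraembryonic ectoderm secretes, was at 41.1 and 52.9 CPM against 79.1 and 58.3 CPM (−0.59, edgeR adjusted p = 0.0508). Of 8 genes of trophoblast giant cells and placental hormones, none reached the counts needed for the test, and 8 of 8 were at 0 at 0 ng/ml. At 0.75 ng/ml Tpbpa, a spongiotrophoblast gene, was at 3.16 CPM and Gcm1 at 0.395 CPM. The label therefore held for a part of the trophoblast genes only. Most UMIs of Ascl2 and Plac1 in the selected cells came from cluster 5 of the clustering described below, which held 44.4% of these cells. The label was thus not borne out for all selected cells, and they are called here by the genes used to select them.

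Surface and amniotic ectoderm is an epithelium that BMP induces from the epiblast, and it shares Gata2, Tfap2a and Tfap2c with trophoblast. Of 18 genes on its list, 15 were tested, 6 were higher and 2 lower, with a median log2 fold change of 0.17. Wnt6, a Wnt ligand of surface ectoderm, was at 175 and 214 CPM against 122 and 102 CPM (0.77), and Msx2, a BMP-responsive homeobox gene, at 147 and 138 CPM against 71.3 and 66.2 CPM (1.03). Tfap2a was at 57.4 and 51.3 CPM against 46.8 and 35.6 CPM (0.38, edgeR adjusted p = 0.0475). By contrast, Grhl3 and Dlx5, an epidermal and a placodal transcription factor, were lower (−1.65 and −2.57). Trp63, the master regulator of stratified epithelia, was at 12.3 and 7.89 CPM against 14.1 and 12.2 CPM and did not pass the test (edgeR adjusted p = 0.243).

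Most of the epithelial structure genes tested were higher. Of 27 keratin and junction genes, 25 were tested, 15 were higher and none lower, with a median log2 fold change of 0.62. Krt8 was at 1536 and 1800 CPM against 765 and 561 CPM (1.32), and Krt18, with which it pairs in simple epithelia, at 2065 and 2128 CPM against 1001 and 614 CPM (1.39). Krt7, a keratin of trophoblast and other simple epithelia, had the largest change of the list, with 36.0 and 34.7 CPM against 10.2 and 6.08 CPM (2.11). Epcam was at 416 and 464 CPM against 325 and 324 CPM (0.41). Because E-cadherin was used for selection, an epithelial list is not independent of the rule.

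Genes of mesenchyme and of other embryonic tissues were mostly at or below the level of the other cells. Of 20 smooth muscle and mesenchyme genes, all were tested, 1 was higher (Tpm2) and 6 were lower. Vim, which encodes the mesenchymal intermediate filament protein vimentin, was at 81.8 and 31.2 CPM against 340 and 134 CPM (−2.09), and Zeb1, Zeb2 and Twist1, repressors of the epithelial state, had log2 fold changes of −2.77, −2.19 and −2.0. Because cells with N-cadherin UMIs were excluded, a mesenchymal list is not independent of the rule either. Against the Hand1-low E-cadherin-positive cells, which met the same cadherin limits, Twist1 was lower and Vim, Zeb1 and Zeb2 did not pass the test. Summed over the list, the level was 3067 and 2871 CPM against 3629 and 1704 CPM, of which Tpm1 alone gave 1866 and 1751 CPM in the selected cells. Extraembryonic mesoderm is the other tissue known for Hand1, and of 16 genes on its list, which includes genes of amnion mesoderm, 13 were tested, 3 were higher (Tbx20, Krt8 and Ahnak) and 4 lower (Foxf1, Pitx1, Bmp5 and Vim), with a median log2 fold change of −0.26. Tbx20, a T-box gene of extraembryonic and cardiac mesoderm, was at 2.09 and 2.76 CPM (9 and 7 UMIs) against 0.629 and 0.291 CPM (2.34, SE 0.63, edgeR adjusted p = 0.0412). Krt8 gave 1536 and 1800 CPM of the list's sums of 2178 and 2360 CPM, against 1521 and 875 CPM for the list in the other cells. Foxf1, a defining gene of extraembryonic and lateral plate mesoderm, had 1 UMI in the selected cells at 0 ng/ml and none at 0.75 ng/ml. Hand2 had 1 and 0 UMIs and Tbx4 none. Of the list of lateral plate, intermediate, pharyngeal and cardiac mesoderm, 12 genes were tested and 3 were lower. Sox17, a factor of endoderm and of hemogenic endothelium, was higher, with 16.0 and 25.7 CPM against 2.32 and 1.66 CPM (3.34), but of the 15 endoderm genes 11 were at 0 in the selected cells of each library, among them Cer1.

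Caudal identity genes were lower almost throughout. Of 33 Hox genes, 32 were tested, none was higher and 30 were lower, with a median log2 fold change of −3.17 (−3.07 with genes without UMIs set to their bound). The 2 without a call, Hoxa13 and Hoxd13, had no UMI in the selected cells. Of 12 caudal epiblast and neuromesodermal genes tested, 11 were lower, among them Sox2 (−2.11) and Fgf17 (−4.10), with a median of −2.90. Of 10 presomitic and somitic genes tested, 5 were lower (median −3.06, or −2.14 with genes without UMIs set to their bound), and of 12 primitive streak genes tested, 3 were lower and 1, Wnt3, was higher (0.63). Because T, Tbx6 and Cdh2 were used for selection, these lists are not independent of the rule.

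BMP and FGF pathway genes were counted next, since BMP4 was present in all cultures and FGF2 was the varied factor. BMP acts through type I and type II receptors and Smad proteins on targets such as the Id genes, and FGF through receptor tyrosine kinases and ERK on feedback genes of the Spry, Dusp and Etv families. Of 15 BMP target genes, 7 were higher and 2 lower (median 0.73). Id1 was at 244 and 392 CPM against 158 and 181 CPM (0.85) and Id2 at 452 and 569 CPM against 267 and 254 CPM (0.94), whereas Msx1 was at 45.6 and 97.1 CPM against 146 and 241 CPM (−1.51). None of the 10 BMP receptor and Smad genes passed the test, and of 12 BMP ligand and antagonist genes tested none was higher and 3 were lower.

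FGF response genes were lower more often than higher. Of 16 FGF and ERK target genes, 9 were lower and 3 higher, with a median log2 fold change of −0.74. Dusp6, an ERK phosphatase induced by FGF, was at 8.83 and 16.6 CPM against 25.7 and 36.5 CPM (−1.36), Dusp4 at 6.28 and 11.1 CPM against 25.6 and 43.9 CPM (−2.03), and Etv4 at 2.32 and 9.08 CPM against 17.0 and 27.1 CPM (−2.13). The 3 that were higher, Fos (1.93), Egr1 (0.61) and Ier3, are immediate early genes that many other stimuli also induce. Fgfr2, the main FGF receptor gene of trophoblast, was at 25.8 and 21.7 CPM against 12.9 and 8.99 CPM (1.10), whereas Fgfr1 was at 60.2 and 72.6 CPM against 65.1 and 59.9 CPM and did not pass the test (edgeR adjusted p = 0.81). In both libraries the levels of Dusp6, Dusp4 and Etv4 in the selected cells lay below those of the other cells of the same library.

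Wnt signaling was active in all cultures through CHIR99021, which acts downstream of the ligands and receptors. Of 21 Wnt ligand and receptor genes tested, 4 were higher and 7 lower (median −0.07). Wnt4 was at 210 and 133 CPM against 128 and 78.6 CPM (0.71), whereas Wnt5a, a ligand of the caudal embryo, was at 21.8 and 25.3 CPM against 83.9 and 112 CPM (−2.06) and Wnt3a had no UMI in the selected cells. Of 13 Wnt target genes 6 were lower and none higher, among them Axin2, Lef1 and Sp5. Of 13 Notch pathway genes tested 5 were lower and none higher, and of 10 Nodal and Activin genes tested 1 was lower. Over all genes tested, 8.06% were higher and 7.48% lower, so the Nodal and Activin count is not read as a result. The lower Notch genes included Hes7, Dll1 and Dll3 of the presomitic list, which is not independent of the rule. Against the Hand1-low E-cadherin-positive cells, 3 of 12 Notch genes were lower, among them Hes7, and Dll1 and Dll3 did not pass.

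Further lists were counted in the same way, beside 8.06% higher and 7.48% lower over all genes tested. Of 14 epiblast and pluripotency genes tested, 4 were higher (Klf4, Utf1, Pou3f1 and Dnmt3b) and 4 lower (Sox2, Zic2, Sall4 and Lin28a), and Pou5f1, the central pluripotency factor, was at 2.09 and 7.10 CPM and did not pass the test. Of 13 annexin and S100 genes tested 7 were higher and none lower, with a median of 0.66, and Ahnak, a large membrane scaffold gene on that list, was at 499 and 468 CPM against 298 and 126 CPM (1.28). Of 20 matrix genes tested 3 were higher and 2 lower, of 14 p53 target genes 1 was higher, and of 15 interferon and antigen presentation genes 3 were lower. These counts are of few genes and are not read as a result about the lists. Of 8 neurectoderm and neural crest genes tested, 1 was higher and 4 were lower (median −2.45), and of 5 germ cell genes tested 1 was higher (Tfap2c) and 1 lower (Kit).

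Imprinted growth genes contain several regulators of the placenta. Of 18 tested, 6 were higher and 2 lower, with a median of 0.27. Phlda2, a maternally expressed restrainer of placental growth, was at 2642 and 1871 CPM against 458 and 425 CPM (2.31, SE 0.10, edgeR adjusted p = 1.06e-05). Igf2, a paternally expressed growth factor gene, was at 698 and 597 CPM against 237 and 141 CPM (1.80), and Peg10, a retrotransposon-derived gene essential for the placenta, at 682 and 855 CPM against 246 and 232 CPM (1.65). Cdkn1c and Dlk1 did not pass the test (edgeR adjusted p = 0.498 and 0.445). Among cell cycle genes, Ccnd3 was at 255 and 221 CPM against 105 and 91.0 CPM (1.26), whereas Ccnd1 and Ccnd2 were lower (−1.21 and −1.54). Of 28 S phase and G2/M genes, 3 were higher and 5 lower, beside 8.06% and 7.48% over all genes tested. The glucose transporter genes Slc2a1 and Slc2a3 were higher (0.72 and 0.64), within a list of 15 glucose uptake and glycolysis genes of which 3 were higher and 3 lower.

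**Figure D3:**
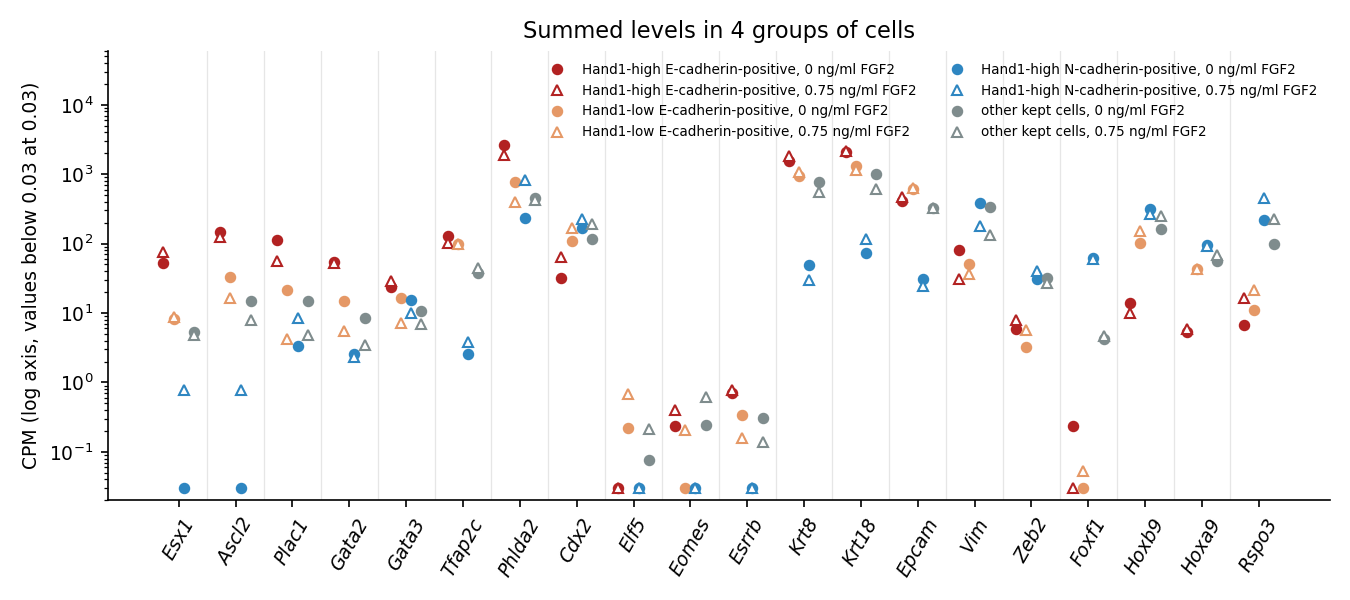
Levels in CPM (log axis; values under 0.03 are drawn at 0.03) of 20 genes in the 4 sets of cells at 0 ng/ml FGF2 (filled circles) and 0.75 ng/ml (open triangles), each point 1 sum per library. Red points of Esx1, Ascl2, Plac1 and Gata2 lie above all others, those of Hoxb9, Hoxa9 and Cdx2 below all others, and Elf5, Eomes and Esrrb stay under 1 CPM in all sets.

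Hand1-low E-cadherin-positive cells differ from the selected cells in the Hand1 limit alone, and the comparison with them asks what goes with Hand1 within the epithelial cells. Of 11787 genes tested, 1625 were higher in the Hand1-high cells (13.8%) and 1456 lower (12.4%). Against these 3081 in all, 1791 genes passed with cells of 20000 to 50000 UMIs, 1843 without the library as block and 551 and 611 in fits of all 4 libraries without the 0.75 or the 0 ng/ml library. Esx1 was at 8.18 and 8.63 CPM in the Hand1-low cells (log2 fold change 2.90, SE 0.15, edgeR adjusted p = 2.4e-08), Plac1 at 21.4 and 4.24 CPM (2.81) and Ascl2 at 32.6 and 16.6 CPM (2.46). Nup62cl, Gata2, Sct and Mbnl3 were again among the 8 named higher genes (2.63, 2.41, 2.24 and 2.16). Dusp9, an X-linked ERK phosphatase gene needed in the placenta, was at 223 and 133 CPM against 44.4 and 24.4 CPM (2.33). For Esx1, Ascl2 and Plac1, both libraries of Hand1-high cells lay above both libraries of Hand1-low cells. Of the 10 genes of the trophoblast list tested here, 5 were higher, 2 were lower (Cdx2 and Bmp4) and 3 did not pass.

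Of 14 surface and amniotic ectoderm genes tested, 4 were higher and 7 lower in the Hand1-high cells, with a median log2 fold change of −0.47, beside 0.00 over all genes. The higher genes were Gata2 (2.41), Grhl1 (1.15), Msx2 (147 and 138 CPM against 91.9 and 73.4 CPM, 0.74) and Igfbp3 (0.49), and the lower ones included Dlx5, Grhl3 and Trp63. Dlx5 was at 2.32 and 1.97 CPM against 31.4 and 38.3 CPM (−4.00), Grhl3 at 6.04 and 4.34 CPM against 34.4 and 43.1 CPM (−2.86) and Trp63 at 12.3 and 7.89 CPM against 39.8 and 29.6 CPM (−1.82). Tfap2c was at 97.5 and 99.3 CPM in the Hand1-low cells and did not pass the test (0.18, edgeR adjusted p = 0.155), and nor did Wnt6 (−0.15, edgeR adjusted p = 0.229). Upk1a, a urothelial plaque protein gene, and the secreted factor genes Ptn and Cxcl14 were named among the lower genes with −2.47, −2.41 and −2.37. Keratin and junction genes were split, with 6 higher and 10 lower of 25. Krt7, Krt8 and Krt18 were higher (1.5, 0.65 and 0.71) and Epcam lower (−0.56). The 2 sets lay largely in different clusters of the clustering described below. Within cluster 3, Krt8 was at 1867 and 2378 CPM in the selected cells against 1418 and 1701 CPM. Within cluster 5 it was lower, with 1724 and 1529 CPM against 1987 and 2437 CPM. Krt18 changed direction between the libraries in both of these clusters.

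Hox genes were lower than in the Hand1-low cells as well, with 26 of 28 tested lower, none higher and a median of −2.54. Hoxb8 was at 62.2 and 86.2 CPM in the Hand1-low cells (−3.48) and Hoxa7 at 95.4 and 131 CPM (−3.29). Cdx2 was at 111 and 167 CPM (−1.63). Most Hand1-low cells and few selected cells belonged to cluster 2 of the clustering described below, and within the other clusters Hoxb9 and Cdx2 did not differ in one direction throughout. Of 13 BMP target genes tested, 8 were higher and 2 lower (median 0.70), and of 15 FGF and ERK target genes, 3 were higher and 8 lower (median −0.53). Of 18 imprinted growth genes, 10 were higher and none lower. Of the mesenchymal list, 7 of 18 were higher and 1, Twist1, was lower. Among the higher were Acta2 (1.07) and Tagln (275 and 304 CPM against 235 and 91.6 CPM, 0.88), which encodes the smooth muscle protein transgelin. The tenth of selected cells with most Tagln UMIs held 71.1% and 75.1% of them. In cluster 3, which held 40.4% of the selected and 22.1% of the Hand1-low cells, Tagln was at 577 and 712 CPM against 930 and 331 CPM. There it was thus lower in the selected cells at 0 ng/ml and higher at 0.75 ng/ml. Of the extraembryonic and amnion mesoderm list, 5 of 9 were higher (Dlk1, Tbx20, Pmp22, Ahnak and Krt8) and 1 was lower (Bmp5), with a median of 0.65. Dlk1, an imprinted gene, was at 8.83 and 8.29 CPM against 1.34 and 0.627 CPM (3.13), and Tbx20 had a log2 fold change of 2.75.

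Hand1-high N-cadherin-positive cells share the Hand1 limit but carry the mesodermal cadherin. Of 9706 genes tested, 1594 were higher in the E-cadherin-positive cells (16.4%) and 1387 lower (14.3%). With every cell thinned to 10000 UMIs 712 passed in all, and fits of all 4 libraries without the 0.75 or the 0 ng/ml library gave 1064 and 1247. Ascl2 and Esx1 were all but undetected in the N-cadherin-positive cells, with no UMI at 0 ng/ml and 1 UMI each at 0.75 ng/ml. At 0 ng/ml, Ascl2 was at least 56.9-fold and Esx1 at least 20.4-fold higher in the E-cadherin-positive cells, against a floor of 3 counts. The junction genes Crb3 and Cldn7 (log2 fold changes 6.84 and 6.23) and the metallothionein genes Mt1 and Mt2 (5.78 and 6.20) were also named, and all 25 tested keratin and junction genes were higher, with a median of 3.94 (2.85 with genes without UMIs set to their bound). Because the 2 sets were selected by opposite limits on Cdh1 and Cdh2, epithelial and mesenchymal genes are not independent of the rule in this comparison either. Foxf1 was at 61.0 and 60.5 CPM in the N-cadherin-positive cells, at least 51.1-fold above the E-cadherin-positive cells at 0.75 ng/ml. Car14, a carbonic anhydrase gene, was at 69.5 and 73.5 CPM against 0.465 and 0 CPM. Of the extraembryonic and amnion mesoderm list 8 were tested, with 2 higher (Krt8 and Ahnak) and 4 lower (Foxf1, Pitx1, Vim and Spin2c) in the E-cadherin-positive cells. Of 8 trophoblast genes tested, 6 were higher there and 2 lower (Cdx2 and Bmp4). Of 11 surface and amniotic ectoderm genes tested, 10 were higher and 1 lower (Hey1). Of 17 smooth muscle and mesenchyme genes tested, 5 were higher, among them Tagln, and 5 lower. Of 29 Hox genes tested, all were lower in the E-cadherin-positive cells. Phlda2 (236 and 830 CPM) and H19 (26.3 and 13 CPM) were also lower in the N-cadherin-positive cells (2.21 and 2.62), and Igf2 was at 247 and 155 CPM there (1.67).

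Individual selected cells differed widely in the named genes. After each cell had been thinned to 10000 UMIs, the median number of the 10 named higher genes with a UMI was 3 in both libraries, with a range from 0 to 9. At least 5 of the 10 were detected in 41.6% and 38.5% of selected cells, and none in 20.8% and 9.23%. In the other retained cells, at least 5 were detected in 4.18% and 1.29%, in the Hand1-low E-cadherin-positive cells in 7.17% and 2.40% and in the N-cadherin-positive cells in none. Since these 10 genes were chosen for their difference, the comparison is a description. The counts were not spread evenly, as 8 of the 10 genes were held by 17 selected cells at 0 ng/ml and 9 at 0.75 ng/ml, but 4 of the 10 by 5 and 4 cells. Without thinning, Esx1 was detected in 43.6% of selected cells (33.7–53.8%) without FGF2 and 53.8% (41–66.3%) with 0.75 ng/ml, and in 0 of 34 and 1 of 42 N-cadherin-positive cells. The tenth of selected cells with most Esx1 UMIs held 56.1% of these UMIs at 0 ng/ml.

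**Figure D4:**
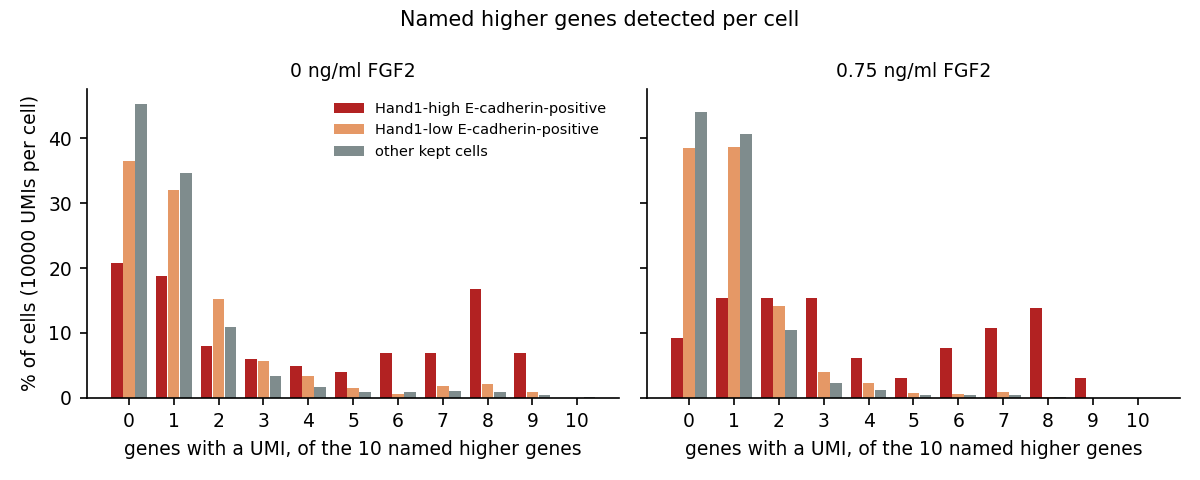
Bars show the share of cells, in %, by the number of the 10 named higher genes with at least 1 UMI after thinning to 10000 UMIs, for the 0 ng/ml (left) and 0.75 ng/ml FGF2 library (right). Hand1-high E-cadherin-positive cells (red) spread over 0 to 9 genes, with one maximum at few genes and another at 8, whereas the other sets are concentrated at 0 to 2.

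Clustering of all 8952 retained cells without the selection genes placed the selected cells in several clusters. Of 6 clusters, cluster 5 (205 cells, with Esx1, Ascl2, Gata2, Nup62cl and Plac1 among its leading genes) held 76 of the 171 selected cells (44.4%), cluster 3 (1368 cells, led by Tagln, Spp1, Thbs1 and Anxa1) held 69 (40.4%) and cluster 2 (1844 cells, led by Dlx5, Upk1a and Rab25) held 22 (12.9%). Cluster 4 held 4, and clusters 0 and 1 held none. These shares were alike in both libraries, with 44.6% and 46.2% in cluster 5 and 39.6% and 40% in cluster 3. Over all 4 libraries, Hand1-low E-cadherin-positive cells were mostly in cluster 2 (69.3%) and N-cadherin-positive cells in clusters 1 (68.2%) and 0 (17.4%). Of the N-cadherin-positive cells at 0 ng/ml, cluster 1 held 32.4% and cluster 0 47.1%. At 0.75 ng/ml these shares were 71.4% and 16.7%. The border of cluster 5 was not sharp: from 4 other random starts of the clustering, it held 241 to 247 cells, always with the same 205 and with 77 to 79 selected cells. Genes that define the clusters are not results, and no test was made between clusters.

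Levels within the selected cells are given by cluster as a description only. Ascl2, Plac1 and Sct were among the leading genes of cluster 5 and Tagln led cluster 3. Their differences between clusters are therefore not independent of the clustering. In cluster 5, Ascl2 was at 316 CPM without FGF2 (45 cells) and 283 CPM with 0.75 ng/ml (30 cells), Plac1 at 236 and 118 CPM and Sct at 1431 and 1236 CPM. In cluster 3, Ascl2 was at 0.638 CPM (40 cells) and 8.50 CPM (26 cells), Plac1 at 10.9 and 14.2 CPM and Sct at 22.3 and 33.0 CPM. Most UMIs of these 3 genes in the selected cells thus came from cluster 5. Krt8 was high in both, with 1724 and 1529 CPM in cluster 5 and 1867 and 2378 CPM in cluster 3. Tagln was at 577 and 712 CPM in cluster 3 and at 122 and 0.922 CPM in cluster 5, and Ahnak at 840 and 703 CPM against 284 and 212 CPM. Hoxb9 was low in all of them, with 4.27 and 13.8 CPM in cluster 5, 16.0 and 8.50 CPM in cluster 3 and 31.4 and 2.97 CPM in cluster 2 (15 and 7 cells). Vim was at 10.7 and 10.1 CPM in cluster 5 and at 181 and 56.6 CPM in cluster 3.

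**Figure D5:**
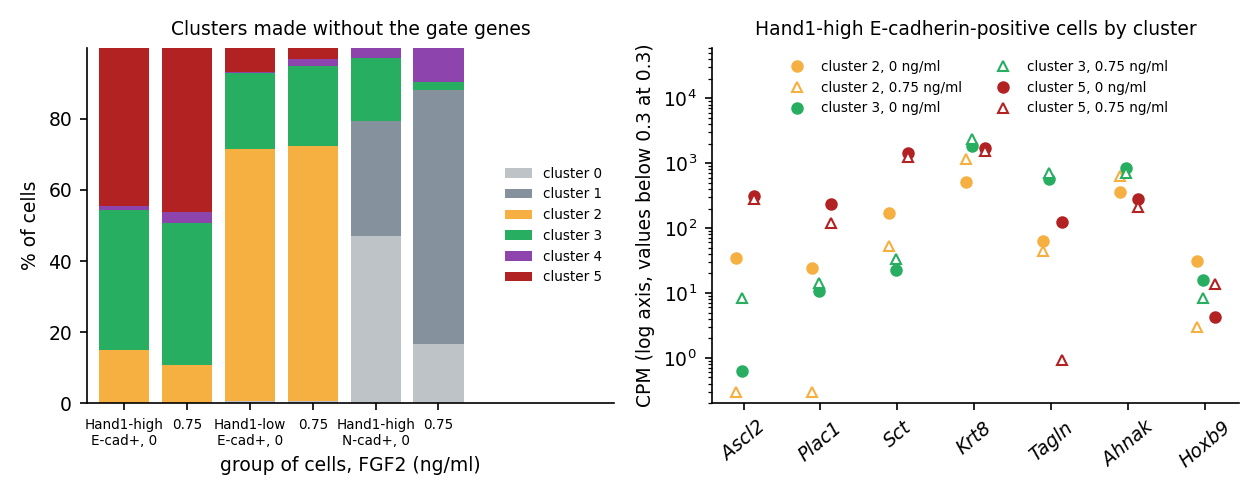
The left panel stacks the share of cells, in %, that each of 6 clusters holds for 3 sets of cells in the 0 and 0.75 ng/ml libraries, and the right panel gives levels in CPM (log axis; values under 0.3 drawn at 0.3) in the selected cells of clusters 2, 3 and 5 (circles 0 ng/ml, triangles 0.75 ng/ml). Clusters 5 and 3 hold most of the selected cells, and Ascl2, Plac1 and Sct are high in cluster 5 whereas Tagln and Ahnak are high in cluster 3. Ascl2, Plac1, Sct and Tagln are leading genes of these clusters, so their levels are not independent of the clustering.

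Hand1-low E-cadherin-positive cells had their high Hoxb9 and Cdx2 levels in cluster 2, with 145 and 203 CPM of Hoxb9 (229 and 483 cells) and 147 and 197 CPM of Cdx2, against 35.0 and 2.97 CPM of Cdx2 in the selected cells there. In cluster 3 they had 12.0 and 40.2 CPM of Hoxb9 (69 and 153 cells) and 31.7 and 91.8 CPM of Cdx2, against 27.5 and 59.5 CPM of Cdx2 in the selected cells. In cluster 5 they had 9.81 and 6.25 CPM of Hoxb9 and 29.4 and 181 CPM of Cdx2, against 34.7 and 76.5 CPM of Cdx2 in the selected cells.

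Cluster 5 reached beyond the Hand1 limit. Of its 205 cells, 129 were not selected, of which 109 had fewer than 5 UMIs of Hand1, 54 of these between 1 and 4, and 40 of the 129 had fewer than 2 UMIs of Cdh1. In Hand1-low cells of cluster 5, some of the named genes were close to their level in the selected cells of that cluster and others were not. The Hand1-low cells had Ascl2 at 289 CPM (22 cells, 0 ng/ml) and 270.5 CPM (22 cells, 0.75 ng/ml) and Esx1 at 103 and 158 CPM, against 106 and 149 CPM of Esx1 in the selected cells. Nup62cl was at 123 and 113 CPM against 272 and 226 CPM, and Plac1 at 263 and 56.3 CPM against 236 and 118 CPM. Gata2 was at 147 and 51.6 CPM against 112 and 107 CPM, and H19 at 495 and 70.4 CPM against 221 and 290.3 CPM. In the order of rising dose, cluster 5 made up 6.54%, 2.61%, 0.8% and 0.249% of retained cells. Among the 14 nearest other cells of each selected cell in the graph, 28.2% were selected cells, 23.7% Hand1-low E-cadherin-positive and 0.0418% Hand1-high N-cadherin-positive, beside shares of 1.91%, 16.6% and 1.47% of all cells.

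The limits of the selection did not all coincide with a step in the named genes. E-cadherin-positive cells with 5 Hand1 UMIs (14 cells, inside) had 1722 CPM summed over the 10 named higher genes, and those with 4 (20 cells, outside) had 864 CPM. At 0.75 ng/ml the sums were 267 CPM (6 cells) and 572 CPM (20 cells), in the reverse order. Cells with at least 10 Hand1 UMIs had 1895 CPM (55 cells) and 1843 CPM (33 cells). At the Cdh1 limit, cells outside with 1 Cdh1 UMI had 1979 CPM (14 cells) and 1797 CPM (9 cells), more than cells inside with 2, which had 982 CPM (9 cells) and 1652 CPM (10 cells). Cells outside with 1 UMI of Cdh2 had 297 CPM (10 cells) and 249 CPM (8 cells).

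Between 0 and 0.75 ng/ml FGF2, genes within the selected cells were compared by size only. By a rule of size without a test (a ratio of at least 2, and 50 CPM or more in one of the pair), 13 of 3223 genes (0.403%) differed, 7 of them higher at 0.75 ng/ml, beside 42 of 3027 (1.39%) in the other retained cells. The count of 13 was 40 with thinned cells, 24 with cells of 20000 to 50000 UMIs, 71 at a ratio of 1.5 and 134 at a minimum of 10 CPM. Ccnd1, a cyclin gene induced by FGF and Wnt, was at 28.1 and 89.2 CPM (ratio 3.17, exact conditional interval 2.53–3.99), against a ratio of 1.2 in the other cells. Intervals of these ratios cover the counting error of UMIs only, and neither the spread between cells nor that between libraries. Msx1 was 2.13 times (1.76–2.58) and Id3 2.06 times (1.89–2.23) as high at 0.75 ng/ml, against 1.66 and 1.16 times in the other cells. Acta2 was 4.53-fold (3.22–6.52) and Vim 2.62-fold (2.05–3.39) higher at 0 ng/ml, and the same ratios in the other cells were 6.31 and 2.54. Anxa1, Meis2, Gas1 and Ccn1 were also lower at 0.75 ng/ml.

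The 5 selected cells at higher doses were unlike each other. At 3 ng/ml, 1 cell of 27538 UMIs had 9 UMIs of Esx1, 5 of Ascl2, 45 of Sct and 199 of Phlda2, and 7 of the 10 named genes in all. The other, of 51244 UMIs, had 97 UMIs of Krt19 and 6 of Phlda2 but none of Esx1, Ascl2 or Sct. At 12 ng/ml, the 3 cells held 4, 3 and 2 of the 10 named genes, 1 of them had 7 UMIs of Esx1, and none had a UMI of Ascl2. By the rule of size, 579 of 3585 genes (16.2%) differed between 0 and 12 ng/ml in the selected cells, beside 113 of 3128 (3.61%) in the others, but the first count rests on 3 cells and was 1365 with thinned cells, 1288 at a ratio of 1.5 and 2004 at a minimum of 10 CPM. Spry4, an FGF feedback inhibitor gene, was at 54.8 CPM in these 3 cells (7 UMIs) and at 1.63 CPM at 0 ng/ml, and Sct at 7.82 CPM (1 UMI) and 663 CPM, a fold of 84.8 (15.2–3350). Phlda2 was 33.8-fold (18.4–70.4) and Nrk, an X-linked kinase gene of the placenta, 11.8-fold (5.99–27.4) higher at 0 ng/ml, while in the other retained cells Phlda2 was at 458 and 615 CPM. The intervals of these folds cover the counting error of UMIs only, and not the spread between the 3 cells or between libraries. Nrk and Spry4 went the same way in the other cells, Nrk with 134 and 48.3 CPM and Spry4 with 6.23 and 25.6 CPM. Of the 3 cells at 12 ng/ml, 2 were in cluster 3, 1 was in cluster 4 and none was in cluster 5, which held 45 of the 101 selected cells at 0 ng/ml, so that these values compare cells of different clusters.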

How the data were processed

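Per the methods and labels, the authors made 10x 3′ libraries and counted reads with Cell Ranger on mm10 (the matrix headers name version 5.0.1, the methods another), and deposited whole-number UMI counts per gene and cell, unfiltered for the limits used here. Retained cells had at least 2500 detected genes and at most 10% mitochondrial UMIs. The selection, the gene lists and the tests were chosen with earlier results of these data known. Counts were summed per library and set of cells (at least 20 cells), without the 6 selection genes, and 2 libraries were fitted with edgeR 4.0.16 (R 4.3.3; TMM factors, filterByExpr with a minimum count of 10, library as block), at an adjusted p of 0.05. Same-numbered sums are paired because they come from the same library. In a test on simulated data for the comparison with other retained cells (14207 genes), 94% of changes of 1 and 100% of changes of 2 on the log2 scale were recovered, with 8 false calls. For Hand1-low cells (11676 genes) these were 82%, 100% and 13, and for N-cadherin-positive cells (9599 genes) 78%, 100% and 7. The simulation gave all genes the same dispersion and the libraries no difference but their totals. Its changed genes were drawn from the more highly expressed ones. These rates therefore need not hold for the real tests, least of all for genes of few UMIs.

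Named genes were the 10 (other comparisons 8, doses 6) largest changes in each direction with at least 50 CPM and the same sign in both libraries, besides list members. Clusters (Leiden, 15 neighbors, 50 principal components, 2447 variable genes) came from scanpy 1.11.5. Gene positions were taken from GENCODE for GRCm38, in which 32158 of 32285 gene identifiers were found. Bounds for genes without UMIs used 3 counts per sum.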

Additional observations from a re-analysis of the deposited data

Results flagged for a closer look

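For 3 list genes the ratio between Hand1-high E-cadherin-positive cells and the other retained cells lay on opposite sides of 1 in the 0 and 0.75 ng/ml FGF2 libraries. Tagln was 0.557 times the level of the other cells at 0 ng/ml and 3.09 times at 0.75 ng/ml, Runx1 0.344 and 1.96 times, and Pmp22 0.571 and 1.54 times. In the selected cells the levels were close in both libraries (Tagln 275 and 304 CPM, Runx1 20.7 and 19.3 CPM, Pmp22 40 and 32 CPM). In the other cells they were higher at 0 ng/ml (Tagln 494 and 98.2 CPM, Runx1 60.2 and 9.89 CPM, Pmp22 70.0 and 20.7 CPM). The difference between the libraries was not tested, since each dose has 1 library.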

How the results depend on the processing

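Counts of genes depended on the fit. Against the other retained cells, 2209 genes passed, with 1132 by DESeq2, 862 with no replicate block and 628 to 2593 in fits of all 4 libraries leaving out 1 (1049 without 0 ng/ml, 628 without 0.75 ng/ml, 2291 with all 4). Against Hand1-low cells, 3081 passed, with 793 by DESeq2, 1843 with no replicate block, 1791 with cells of 20000 to 50000 UMIs, 1460 with thinned cells and 551 to 2724 leaving out 1 library (611 without 0 ng/ml). Against N-cadherin-positive cells, 2981 passed, with 861 by DESeq2, 712 with thinned cells, 2850 with no replicate block and 1064 to 2578 leaving out 1 library (1247 without 0 ng/ml). By the rule of size, 579 genes differed between 0 and 12 ng/ml, with 2004 at a minimum of 10 CPM, 1288 at a ratio of 1.5 and 1365 with thinned cells. Between 0 and 0.75 ng/ml 13 differed, with 134, 71 and 40 under these settings and 24 with cells of 20000 to 50000 UMIs. The share of selected cells among neighbors, 28.2%, was 26.3% with 30 neighbors and 25.9% with 20 principal components. The ratio of shares between 0 and 12 ng/ml ranged from 18.7 to 65.5. Of 607 values of 52 named genes under alternatives, 606 kept direction and call, and Fgf8 lost its call with no replicate block (−3.28). The cause of these differences was not tested. Fits of all 4 libraries, the 0 to 0.75 ng/ml step and selection without the Cdkn2a, T and Tbx6 limits (ratio 39.2) were added after seeing the data. Leaving out a library of the 2 left no test, and Hand1 of at least 8 was not run against N-cadherin-positive cells, which left under 20 cells. Depth limited the 3 and 12 ng/ml values, where 3 counts amount to 38.1 and 23.5 CPM.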

Other observations

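Of the 10 genes named as higher in Hand1-high E-cadherin-positive cells than in the other retained cells, 4 lie on chromosome X (Esx1, Plac1, Nup62cl and Mbnl3). Chromosome X held 480 of the 14219 genes tested (3.38%), 62 of the 1146 genes that were higher (5.41%) and 40 of the 1063 that were lower (3.76%). The share of UMIs from chromosome X was 3.60% and 3.53% in the selected cells and 3.36% and 3.2% in the others at 0 and 0.75 ng/ml FGF2.

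In the library with the FGF receptor inhibitor AZD4547, which took no part in the selection, 13 of 1701 retained cells (0.764%, exact interval 0.408–1.30%) met the same limits. Their summed levels were 10.6 CPM of Esx1 (3.44–24.8) against 1.65 CPM in the other cells of that library, 67.9 CPM of Nup62cl against 10.4 CPM and 242 CPM of Sct against 59.0 CPM. H19 was at 17.0 CPM against 40.3 CPM, Krt8 at 1419 CPM against 937 CPM and Tagln at 1099 CPM against 1924 CPM. Hoxb9 had no UMI in these cells and was at 9.17 CPM in the others. Cdx2 was at 14.8 CPM (5.97–30.6) in the 13 cells and at 4.54 CPM (3.96–5.19) in the others, whereas in the FGF2 libraries it was lower in the selected cells. Intervals of these CPM cover the counting error of UMIs only.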
